A study of Homo sapiens with 13 samples.

Results

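The chromosome 19 zinc finger genes were the genes on human chromosome 19 whose name is ZNF, a number and at most 1 letter, with at least 1 read in any library. There were 218 of them among 14576 genes with reads. Poly(A) site use was read out by 3’ READS, a sequencing method for the 3’ termini of polyadenylated transcripts, in the HEK293 Flp-in TREX line, which derives from human embryonic kidney. Both groups carried an α-amanitin resistant Rpb1, the largest subunit of RNA polymerase II (Pol II). It was either wild type (5 replicates) or carried the slow-elongation substitution R749H (4 replicates). In both groups the labels name it AvitagRpb1, that is, Rpb1 with an Avitag. Doxycycline at 2 µg/ml induced the transgene, for 24 hr according to the labels, and α-amanitin at 2.5 µg/ml was present for 42 hr in both groups. The study’s methods give a shorter time of doxycycline before α-amanitin was added, and then both together for 42 hr. The endogenous Rpb1 gene remained in these cells, and α-amanitin inhibits its product. Whether each line was a single clone or a pool is not given in the sources used here, so a difference between the substitution and the line that carries it cannot be told apart.

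ZNF proteins bind DNA through arrays of C2H2 zinc fingers. Many on chromosome 19 also carry a KRAB domain, which binds TRIM28 and through it SETDB1, a histone H3K9 methyltransferase. The genes arose by tandem duplication and lie in clusters, and many of their proteins repress transposable elements. The 3’ end of each mRNA is set where cleavage and polyadenylation follow a poly(A) signal, usually AATAAA or its common variant ATTAAA.

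The 3’ ends of 9 ZNF genes are shown here because the comparisons below turn on them. Each is the last 30 nt up to the single position with the most reads, on the strand of the gene in GRCh37 (hg19), and capitals mark AATAAA or ATTAAA. The first 3 genes were higher and the next 3 lower in R749H cells. ZNF581 was the most abundant, ZNF681 had the farthest mean distance of 3’ ends from the stop codon among the 83 genes that averaged 20 or more reads, and ZNF584 had the smallest p for a shift of 3’ ends.
ZNF93 (chr19:20047312-20047341, plus strand): gttatctacagattcAATAAActtcctatc
ZNF296 (chr19:45574759-45574788, minus strand): ccttctccaagtaaattttcccttttattt
ZNF574 (chr19:42585671-42585700, plus strand): aatgaaaccatcAATAAAgactgagttgcc
ZNF497 (chr19:58867015-58867044, minus strand): acaggtgacagttaaacatgatgaaaccgc
ZNF414 (chr19:8576224-8576253, minus strand): caccgtcccgaaatacaggatttttgcctt
ZNF414, second site (chr19:8575464-8575493, minus strand): ggacAATAAAgaaggcgccatgagccagcc
ZNF524 (chr19:56114475-56114504, plus strand): ggctgtggaAATAAAtctctgcctgctggc
ZNF581 (chr19:56156959-56156988, plus strand): gatcaaacAATAAAcacgtttcccactctg
ZNF681 (chr19:23921999-23922028, minus strand): aaaatAATAAAtttttttattttaaagatg
ZNF584 (chr19:58929652-58929681, plus strand): gactatgtggtAATAAAggctttattgttt
The ends of ZNF296 and ZNF497 and the first of ZNF414 hold neither hexamer within 40 nt. The first end of ZNF414 had 31.8% of its pooled reads, while its second site, 111 nt after the stop codon of another coding sequence entry, had 68.0% and holds AATAAA. Among the 83 ZNF genes that averaged 20 or more reads, 52 (62.7%) had AATAAA in these 40 nt, 14 had ATTAAA but not AATAAA, and 17 had neither. Over the 7875 genes with as many reads, 67.6% had AATAAA, 16.6% only ATTAAA and 15.7% neither. The search was made on the transcribed strand, and a match describes the sequence only. The leading end lay in an annotated untranslated region of the same gene for 81 of the 83, and within 24 nt of an annotated transcript end for 65. The 30 nt of 2 of the 83, ZNF302 and ZNF561, had another exact copy in the genome.

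Wild-type libraries held 2479851 to 10135014 reads within 5 kb of a stop codon and R749H libraries 3863468 to 6475987. R749H replicate 3 stood apart, with 1 read at 6.60% of its isoforms against 30.1% to 36.2% in the other libraries, and it held reads of 153 of the 218 ZNF genes, against 185 to 203 elsewhere. Wild-type replicate 1 had the fewest reads and the largest TMM factor, 1.26. The HEK293 markers VIM, KRT8 and KRT18 had reads in every library, NEFM had 0 or 1 read, and NEFL was not listed. Of the markers of other cell types, ALB had 0 or 1 read per library, COL1A1 had 0 to 4, and PTPRC, HBB and PECAM1 were not listed. The deposited positions of 3’ ends do not show the R749H substitution, so they do not check the labels.

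Together the 218 genes gave a small part of the poly(A) RNA. Their reads were 0.307% to 0.385% of all reads in wild-type and 0.239% to 0.257% in R749H libraries, and the groups did not overlap. The means were 0.341 ± 0.0334% (SD, n = 5) and 0.249 ± 0.00732% (SD, n = 4). After TMM scaling the groups overlapped, with 2849 to 3624 reads per M reads (RPM) in wild-type and 2638 to 3108 RPM in R749H libraries. The ratio of R749H to wild type was 0.732 by share of reads and 0.913 after TMM scaling, so its size depended on the scaling. By difference in mean TMM-scaled RPM, the largest negative values were -123 RPM for ZNF358, -96.3 RPM for ZNF581, -61.2 RPM for ZNF428 and -57.6 RPM for ZNF444, of which ZNF581 and ZNF444 did not pass the test below, and the largest positive values were 103 RPM for ZNF574 and 74.1 RPM for ZNF296. In such bulk RNA, fewer RNA molecules per cell and fewer cells with the RNA cannot be told apart.

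**Figure D1:**
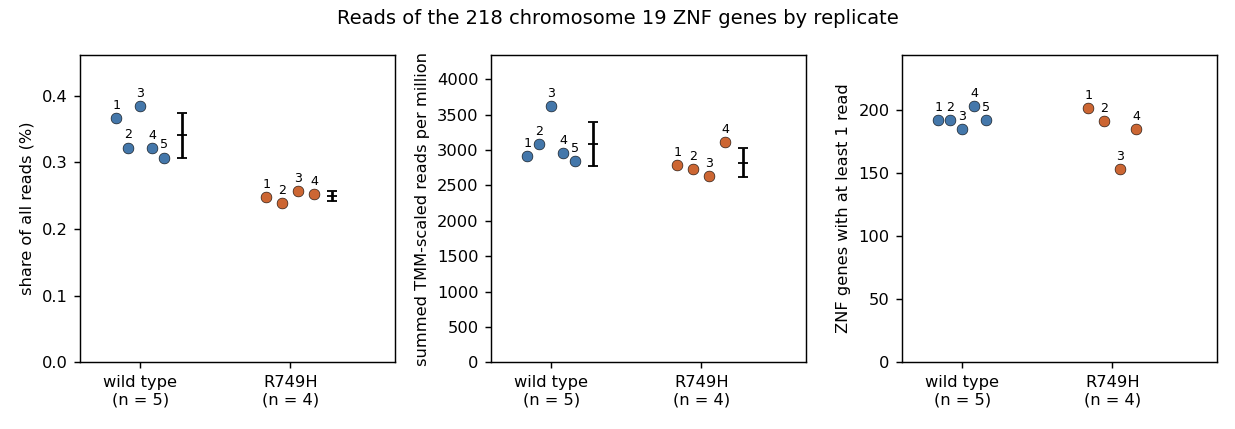
Reads of the 218 chromosome 19 ZNF genes in each library, as share of all reads (left, %), as summed TMM-scaled RPM (middle) and as number of ZNF genes with at least 1 read (right), with replicate numbers above the points and mean ± SD in the first 2 panels. All R749H points lie below all wild-type points on the left, the groups overlap in the middle, and R749H replicate 3 has the fewest ZNF genes with reads, 153.

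Since 3’ READS gives 1 read per RNA end, RPM can be compared between genes without division by length. ZNF581 had the highest level, 512 ± 214 RPM (SD, n = 5) in wild-type and 415 ± 59.8 RPM (SD, n = 4) in R749H cells. ZNF358 was next at 343 ± 67.9 and 220 ± 43.7 RPM, and of the 6 most abundant genes it passed the test below together with ZNF574 and ZNF428. ZNF580, studied in endothelial cells, had 166 ± 37.7 and 157 ± 43.6 RPM. Both leading ends also lie within the annotated gene CCDC106 on the same strand. The groups overlapped for both genes, and their log2 fold changes were -0.22 ± 0.23 (SE, limma adjusted p = 0.523) and -0.09 ± 0.21 (SE, limma adjusted p = 0.783). ZNF444, a SCAN domain protein, had 176 ± 57.1 and 118 ± 18.7 RPM, with a log2 fold change of -0.52 ± 0.22 (SE, limma adjusted p = 0.0902). Without wild-type replicate 1, ZNF444 passed at -0.69 (limma adjusted p = 0.0139). Few C2H2 motifs were counted in the coding sequence of several of these genes. ZNF580 and ZNF581 had 3, ZNF444 had 4 and ZNF428 had 1, against a median of 12 over 217 ZNF genes with a count. Only motifs with 1 fixed spacing of cysteines and histidines were counted, so fingers of other spacing would be missed.

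Whether the level of each ZNF gene differed between the cell lines was tested with limma over all 9495 genes past a filter on low reads. Of the 218 ZNF genes, 121 passed this filter, 7 were higher and 15 lower in R749H cells at a Benjamini-Hochberg adjusted p under 0.05. These are 5.79% and 12.4% of the 121, and over all genes tested 11.3% were higher and 13.8% lower. At an unadjusted p under 0.05 there were 15 higher (12.4%) and 26 lower (21.5%), against 16.9% and 20.8% of all genes tested. The median log2 fold change was -0.13 over the 121 (quartiles -0.65 and 0.31), with 49 above and 72 below 0, and -0.06 over all genes tested. For ZNF genes of other chromosomes the median was -0.25, with 7 higher and 20 lower of 139, and for other chromosome 19 genes it was -5.89e-05, with 98 higher and 95 lower of 657. Libraries of the groups did not overlap for 4 higher and 12 lower ZNF genes of the 121, beside 9.72% and 10.1% of all genes tested.

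These counts moved with single libraries. The higher genes numbered 4 of 116 tested without wild-type replicate 2 and 3 of 108 without wild-type replicate 3. They numbered 4 of 111 without wild-type replicate 4 and 13 of 125 without R749H replicate 1. The lower genes numbered 6 of 129 without R749H replicate 2. Over all genes, in the same order, 822 of 9309, 869 of 9114, 803 of 9119 and 1242 of 9626 were higher. Without R749H replicate 2, 899 of 9783 were lower. Without wild-type replicate 1 and R749H replicate 3 together, the ZNF genes counted 7 higher and 15 lower again, while their median was 0.00035. Over all 9515 genes of that fit, 1117 were higher and 1265 lower. With the scaling of the authors alone, 3 ZNF genes were higher and 30 lower, beside 447 and 2735 of all 9495 genes. In that fit the median over all genes tested moved to -0.39. Relative to that shift the median of the ZNF genes was -0.08, and of all calls 14% were higher, against 45% with TMM factors. The 97 ZNF genes not tested had at most 114 reads over the 9 libraries, with a median of 31. Without the filter, 8 of these 97 passed as higher and 6 as lower. Of all 218 ZNF genes, 13 were higher and 16 lower in that fit, beside 999 (6.85%) and 1252 (8.59%) of all 14576 genes. The 14576 include the genes past the filter, so they compare with the 218 and not with the 97. Among the 121, ZNF93 reached the read filter only through R749H libraries, and ZNF285, ZNF382, ZNF471, ZNF565, ZNF611, ZNF709 and ZNF784 only through wild-type libraries.

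**Figure D2:**
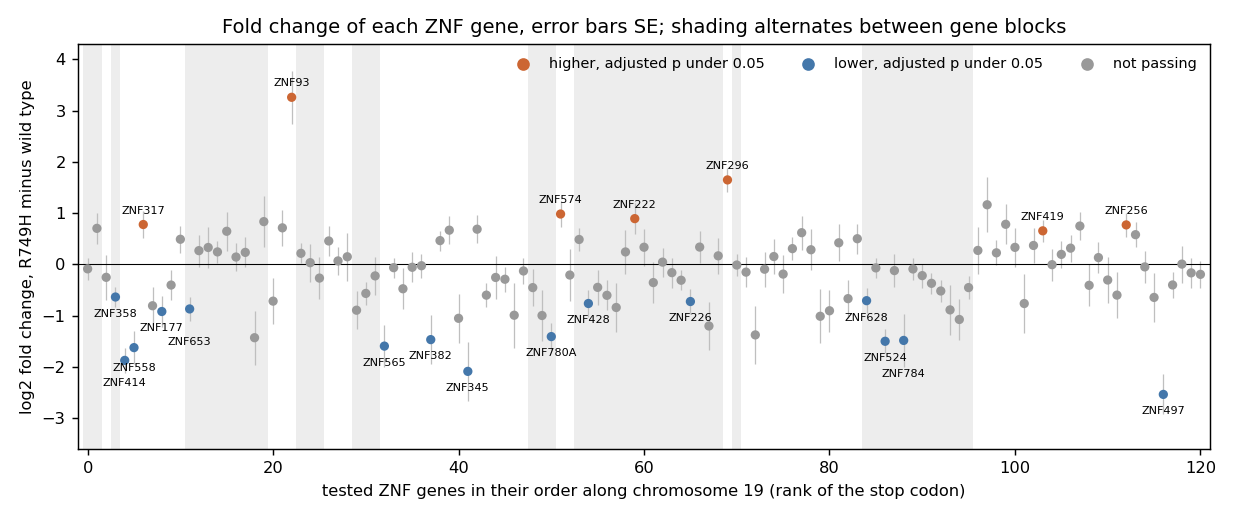
Log2 fold change of the 121 tested ZNF genes (R749H minus wild type, error bars SE) in their order along chromosome 19, with shading that alternates between blocks of neighbouring ZNF genes and colour for genes that passed at an adjusted p under 0.05. The 7 higher and 15 lower genes are spread along the chromosome, from ZNF93 at 3.26 to ZNF497 at -2.54.

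ZNF93, a KRAB protein known for binding LINE-1 elements, had the largest increase among the 121 tested genes, and it reached the read filter only through R749H libraries. Its reads in wild-type replicates 1 to 5 were 0, 0, 0, 2 and 1, and those in R749H replicates 1 to 4 were 14, 20, 14 and 18. Every R749H library was above every wild-type library, at levels of 2.43 to 5.48 RPM against at most 0.182 RPM. The ratio of pooled reads per TMM-scaled depth was 38.7 (95% exact binomial interval 12.7 to 192, counting error only), and the fitted log2 fold change was 3.26 ± 0.51 (SE, limma adjusted p = 0.000240). Most R749H reads ended 1714 nt after the stop codon, with 11, 10, 14 and 13 reads, in a position annotated as intron and 957 nt from the nearest annotated transcript end. R749H replicates 1, 2 and 4 also had 2, 9 and 4 reads at 755 nt.

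ZNF296, a zinc finger protein studied in pluripotent cells, had 20.8, 38.2, 31.5, 34.4 and 50.4 RPM in wild-type and 71.3, 112, 131 and 122 RPM in R749H replicates. The groups did not overlap, and its log2 fold change was 1.65 ± 0.24 (SE, limma adjusted p = 0.000132), a 3.13-fold increase. ZNF574 had 64.6, 103, 84.8, 100 and 154 RPM in wild-type and 145, 187, 150 and 335 RPM in R749H replicates. Wild-type replicate 5 lay above R749H replicates 1 and 3, and the log2 fold change was 0.98 ± 0.25 (SE, limma adjusted p = 0.00926). ZNF93, ZNF296 and ZNF574 were the higher genes that passed in all 9 fits with 1 library left out.

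The other 4 higher genes, ZNF222, ZNF317, ZNF256 and ZNF419, encode KRAB proteins, and their groups overlapped. ZNF222 had 15.03, 6.89, 9.62, 8.65 and 5.60 RPM in wild-type and 9.74, 16.4, 20.5 and 21.9 RPM in R749H replicates, with a log2 fold change of 0.89 ± 0.30 (SE, limma adjusted p = 0.0355). For ZNF317 the increase rested on R749H replicate 4 at 67.8 RPM, since the other R749H replicates had 26.6 to 28.5 RPM and wild-type replicates 16.5 to 26.8 RPM. Its log2 fold change was 0.78 ± 0.27 (SE, limma adjusted p = 0.0409), and 0.47 (limma adjusted p = 0.163) without that library. ZNF256 had 8.15 to 13.8 RPM in wild-type and 13.4 to 20.3 RPM in R749H replicates (log2 fold change 0.77 ± 0.24, SE, limma adjusted p = 0.0231). ZNF419 had 21.4 to 27.8 and 27.1 to 53.8 RPM (log2 fold change 0.65 ± 0.22, SE, limma adjusted p = 0.0344). Each of these 4 missed the threshold with the authors' scaling alone, and they passed in 2, 5, 5 and 3 of the 9 fits with 1 library left out.

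**Figure D3:**
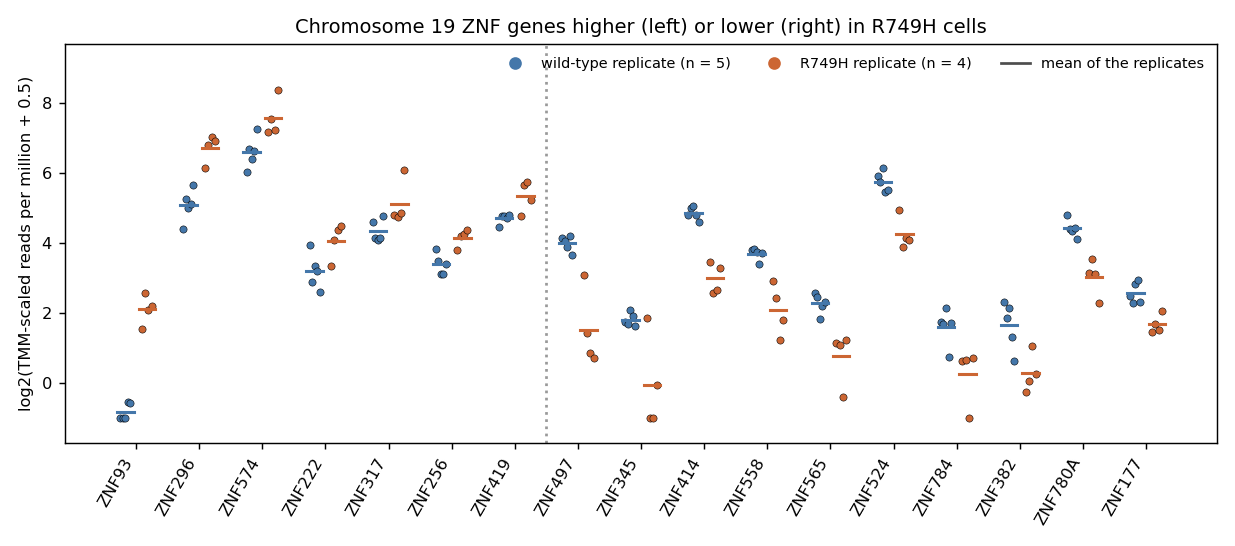
Levels of 7 higher (left) and 10 lower (right) ZNF genes in each library, as log2 of TMM-scaled RPM plus 0.5, with a point for each of 5 wild-type and 4 R749H replicates and a line at each mean. ZNF93 is near the floor in wild-type cells, R749H replicate 4 stands above the other R749H replicates for ZNF317, and R749H replicate 1 stands above the others for ZNF345 and ZNF497.

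ZNF497 had the largest decrease among the 121. Its levels were 17.3, 16.3, 14.5, 17.9 and 12.2 RPM in wild-type and 7.999, 2.19, 1.33 and 1.153 RPM in R749H replicates. R749H replicate 1 stood well above the other R749H replicates and still below every wild-type replicate. The log2 fold change was -2.54 ± 0.39 (SE, limma adjusted p = 0.000206), and the gene passed without each library in turn. Its main 3’ ends lay 490 and 1780 nt after the stop codon, with 60.5 ± 8.002% (SD, n = 5) and 36.5 ± 9.01% of wild-type reads. R749H replicates 2, 3 and 4 held 8, 5 and 5 reads, too few to compare the ends.

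ZNF414, with 1 C2H2 motif counted in its coding sequence, had 27.5, 31.5, 33.1, 27.3 and 24.0 RPM in wild-type and 10.6, 5.48, 5.86 and 9.22 RPM in R749H replicates. The groups were far apart, and the log2 fold change was -1.87 ± 0.24 (SE, limma adjusted p = 3.61e-05), the smallest p of the ZNF genes. ZNF524, a protein that binds telomeric repeats, had 60.8, 53.5, 70.1, 44.2 and 45.3 RPM in wild-type and 30.4, 14.2, 17.3 and 16.6 RPM in R749H replicates. These did not overlap either, and the log2 fold change was -1.50 ± 0.23 (SE, limma adjusted p = 0.000205).

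The KRAB genes ZNF558, ZNF565 and ZNF780A also passed without each library in turn, and no library of either group overlapped the other. ZNF558 had 13.4, 13.8, 12.9, 10.0 and 12.6 RPM in wild-type and 7.13, 4.93, 1.86 and 2.997 RPM in R749H replicates (log2 fold change -1.63 ± 0.32, SE, limma adjusted p = 0.00129). ZNF565 had 3.10 to 5.44 RPM and 0.266 to 1.84 RPM (log2 fold change -1.60 ± 0.42, SE, limma adjusted p = 0.00964). It reached the read filter only through wild-type libraries, where it was high, and without the filter its limma adjusted p was 0.0234. For ZNF780A, wild-type replicates had 27.5, 20.7, 19.7, 21.2 and 16.96 RPM and R749H replicates 8.35, 11.2, 8.25 and 4.38 RPM. Its log2 fold change was -1.41 ± 0.26 (SE, limma adjusted p = 0.000886). The leading ends of ZNF497 and ZNF780A, like those of ZNF222, ZNF345 and ZNF419, overlap an unnamed gene on the same strand, so their reads cannot be told apart from it.

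The remaining 4 of the 10 largest decreases each missed the threshold in at least 1 fit with a library left out. ZNF345 had 9, 13, 23, 36 and 15 reads in wild-type and 18, 0, 0 and 2 reads in R749H replicates, so that R749H replicate 1 lay within the wild-type range. Its log2 fold change was -2.09 ± 0.58 (SE, limma adjusted p = 0.0140), and it did not pass with edgeR (adjusted p = 0.0913) or DESeq2 (adjusted p = 0.0657). ZNF784 had 9, 13, 24, 13 and 16 against 6, 4, 0 and 5 reads (log2 fold change -1.49 ± 0.51, SE, limma adjusted p = 0.0402). It reached the read filter only through wild-type libraries, and without the filter it did not pass (limma adjusted p = 0.0544). ZNF382, a KRAB repressor studied in tumours, had 14, 15, 24, 22 and 6 against 2, 2, 6 and 3 reads, and these overlapped (log2 fold change -1.47 ± 0.49, SE, limma adjusted p = 0.0331). ZNF382 too reached the read filter only through wild-type libraries, and without the filter its limma adjusted p was 0.0413. ZNF177, another KRAB gene, had 4.38 to 7.28 RPM in wild-type and 2.26 to 3.69 RPM in R749H replicates (log2 fold change -0.92 ± 0.31, SE, limma adjusted p = 0.0359). Without the filter ZNF177 did not pass. Its 3’ end is shared with the annotated read-through gene ZNF559-ZNF177. ZNF345 missed the threshold only without R749H replicate 2 among the fits with 1 library left out, ZNF177 passed in 4 of 9, and ZNF784 and ZNF382 each passed in 2 of the 5 in which they were tested. The other 5 lower genes were ZNF653, ZNF428, ZNF226, ZNF628 and ZNF358, with log2 fold changes of -0.87 to -0.64, and they passed in 8, 3, 3, 2 and 7 of the 9 fits. Of these, ZNF358 had 249, 355, 438, 349 and 323 RPM in wild-type and 283, 206, 208 and 182 RPM in R749H replicates, so that R749H replicate 1 lay above wild-type replicate 1 (limma adjusted p = 0.0178).

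By position, stop codons no more than 500 kb apart placed the 218 genes in 24 blocks. In the block from ZNF628 to ZNF71 (chr19:55995740-57134125), all 12 tested ZNF genes of 15 had log2 fold changes below 0, with a median of -0.49, and ZNF524, ZNF628 and ZNF784 passed. Of 6 other genes tested between the same stop codons, 4 were below 0 and 2 passed as lower, and over all 9495 genes tested 54.0% were below 0. In the block from ZNF565 to ZNF573 (chr19:36673368-38229393), 13 of 16 tested genes were below 0 and ZNF565, ZNF382 and ZNF345 passed. The 3 other genes tested there were below 0 and 0 of them passed. Of the ZNF genes that passed in these blocks, ZNF784, ZNF565 and ZNF382 reached the read filter only through wild-type libraries. For a gene tested only on that account, whether it passed or not, a value above 0 was hardly possible. The counts below 0 and the median include such genes. The largest block, from ZNF264 to ZNF446 (chr19:57724349-58992093), held 39 ZNF genes, and of its 25 tested genes 14 were above and 11 below 0, with ZNF256 and ZNF419 higher and ZNF497 lower. Of 4 other genes tested there, 3 were above and 1 below 0. These blocks were picked out after their values were seen, and DNA copy number was not analysed here.

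The corepressor genes that KRAB proteins work with did not move one way. Of 23 names searched, 20 had reads and 18 were tested, of which 3 were higher (16.7%), 3 lower (16.7%) and 12 did not pass, against 11.3% higher and 13.8% lower over all genes tested. TRIM28, the corepressor itself, had 475, 800, 636, 722 and 1070 RPM in wild-type and 1231, 1136, 1097 and 1329 RPM in R749H replicates (log2 fold change 0.74 ± 0.20, SE, limma adjusted p = 0.0115). All R749H libraries were above all wild-type libraries. SETDB1, the H3K9 methyltransferase, had 30.1 to 32.8 RPM in wild-type and 12.9 to 16.1 RPM in R749H replicates, a log2 fold change of -1.14 ± 0.19 (SE, limma adjusted p = 0.000378). The histone deacetylase HDAC1 and the remodeler SMARCAD1 were also lower, at -1.18 ± 0.17 (SE, limma adjusted p = 0.000110) and -2.87 ± 0.50 (SE, limma adjusted p = 0.000545). The histone chaperone DAXX and PPHLN1, a HUSH complex gene, were higher at 1.26 ± 0.39 (SE, limma adjusted p = 0.0231) and 0.57 ± 0.20 (SE, limma adjusted p = 0.0432). With the authors' scaling alone, 0 of the 18 were higher and 6 lower, beside 447 and 2735 of all 9495 genes. The 3 increases thus depended on the TMM factors. Of the corepressor genes, 5 were lower without wild-type replicate 1, beside 1281 of all 9241 genes. Without wild-type replicate 3, 1 was higher, beside 869 of all 9114 genes.

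The distance of 3’ ends from the stop codon was described for the same 83 ZNF genes. Its median was 845 nt (quartiles 442 and 1665 nt). Other chromosome 19 genes ended much closer to the stop codon, at a median of 438 nt over 591 genes, and ZNF genes of other chromosomes farther, at 1119 nt over 97 genes, with 769 nt over all 7875 genes. ZNF358, ZNF296 and ZNF222 had the nearest ends, at mean distances of 74.8, 101 and 126 nt. ZNF681 had the farthest mean distance at 3838 nt, followed by ZNF772 at 3661 nt and ZNF585B at 3503 nt.

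**Figure D4:**
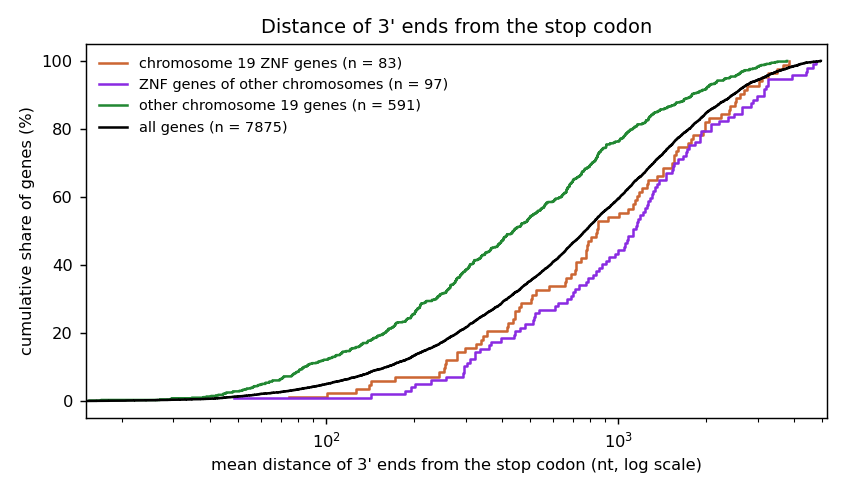
Cumulative share of genes (%) by the mean distance of their 3’ ends from the stop codon (nt, log scale), for genes that averaged 20 or more reads. The median is 845 nt for chromosome 19 ZNF genes, 438 nt for other chromosome 19 genes, 1119 nt for ZNF genes of other chromosomes and 769 nt for all genes.

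Between the cell lines these distances overlapped. The median over the 83 genes was 802 to 898 nt in wild-type and 794 to 840 nt in R749H libraries, with means of 840 ± 45.1 nt (SD, n = 5) and 815 ± 19.1 nt (SD, n = 4). The difference of -24.8 nt was smaller than the wild-type SD and larger than the R749H SD. It was 16.6 nt without wild-type replicate 4 and -70.8 nt for genes with a mean of at least 5 reads. In both, the read minimum was applied anew, so the genes were not the same 83. Over the 83, wild-type replicate 4 had the lowest wild-type median, 802 nt.

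Several 3’ ends per gene were common among the ZNF genes. Of the 83, 46 (55.4%) had at least 2 sites with 5% or more of the reads, where a site joins reads within 24 nt of a peak, against 23.5% of other chromosome 19 genes, 53.6% of ZNF genes of other chromosomes and 45.0% of all genes. Sites whose distances from the stop codon differed by at least 1000 nt were found in 29 (34.9%), against 11.5%, 24.7% and 23.4%. Sites of 1 gene can be measured from different stop codons, as in ZNF414, so this is not always their separation in the genome. ZNF256 showed such a pair, with sites at 89 and 4952 nt. The near site took 34.5% to 42.9% of wild-type and 46.8% to 75% of R749H reads, groups that did not overlap but did not pass the test either (log2 odds 0.97 ± 0.45, SE, limma adjusted p = 0.396). ZNF681 had sites at 254 and 4415 nt, of which the far site took 82.4 ± 8.03% of wild-type (SD, n = 5) and 86.9 ± 9.78% of R749H reads (SD, n = 4). By contrast, ZNF296, ZNF358, ZNF574 and ZNF581 each had 99.8% to 99.9% of their pooled reads at a single site.

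Whether 3’ ends of the ZNF genes lay farther upstream or downstream in cells with slow Pol II was tested gene by gene. For each gene, reads ending beyond the pooled median 3’ end were set against the reads ending up to it, as log2 odds, and tested with limma over 7758 genes. None of the 83 ZNF genes passed in either direction, and over all genes 0.0258% shifted upstream and 0.00% downstream. Of the 83, 37 had only 1 site with 5% or more of the reads. For these the division fell within that site, and some had few reads downstream, such as a wild-type mean of 0.655% in ZNF444. In such genes the test could hardly detect an upstream shift. The division also fell within a site in some genes with several sites, among them ZNF584, ZNF324 and ZNF14. There the downstream share also reflects where reads ended within that site. At an unadjusted p under 0.05 there were 5 upstream (6.02%) and 2 downstream (2.41%), against 5.89% and 3.49% of all genes tested. The median change in log2 odds was -0.16 over the 83 and -0.09 over all genes tested, with 49 below and 34 above 0.

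The 3 ZNF genes per direction with the smallest unadjusted p are given as not passing. ZNF584 had 61.1%, 73.7%, 62.5%, 57.5% and 53.3% of reads downstream in wild-type and 0%, 41.7%, 0% and 46.2% in R749H replicates. All R749H values were below the wild-type values, on 8 to 26 reads per R749H library (log2 odds -3.19 ± 1.02, SE, limma adjusted p = 0.365). The division lay within its site at 530 nt, which held a mean of 79.2% of wild-type and 94.15% of R749H reads. Its far site at 4140 nt held only 18.9% and 5.85%, so most reads counted as downstream in wild type ended within the near site. In ZNF223, 30% to 82.4% of wild-type and 0% to 55.2% of R749H reads were downstream (limma adjusted p = 0.457), and its leading end lies within another annotated gene, so its reads cannot be told apart from those of that gene. ZNF324 had 74.4%, 57.1%, 64.3%, 49.5% and 38.9% in wild-type and 54.5%, 35.7%, 17.4% and 18.2% in R749H replicates (log2 odds -1.62 ± 0.63, SE, limma adjusted p = 0.470). Its site at 3274 nt held 30.5 ± 17.3% (SD, n = 5) of wild-type and 7.495 ± 7.88% (SD, n = 4) of R749H reads.

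Among the genes with higher downstream shares, ZNF529 had 10.8%, 15.7%, 3.57%, 8.97% and 13.8% in wild-type and 17.3%, 21.4%, 24.6% and 17.8% in R749H replicates. No wild-type value reached the R749H values, and the log2 odds changed by 1.22 ± 0.44 (SE, limma adjusted p = 0.416). ZNF530 had 7.69% to 35.9% of wild-type and 25% to 65.2% of R749H reads downstream (log2 odds 1.64 ± 0.66, SE, limma adjusted p = 0.481). Its site at 2736 nt took 13.9 ± 8.27% (SD, n = 5) and 36.4 ± 14.03% (SD, n = 4) of the reads. In ZNF14 the higher share came from R749H replicate 3, at 78.6% on 14 reads, while the other R749H replicates had 12.5% to 21.9% and wild-type replicates 7.69% to 15.6% (limma adjusted p = 0.572). All 14 reads of that library lay in the leading site at 879 nt, so its share reflects positions within 1 site.

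**Figure D5:**
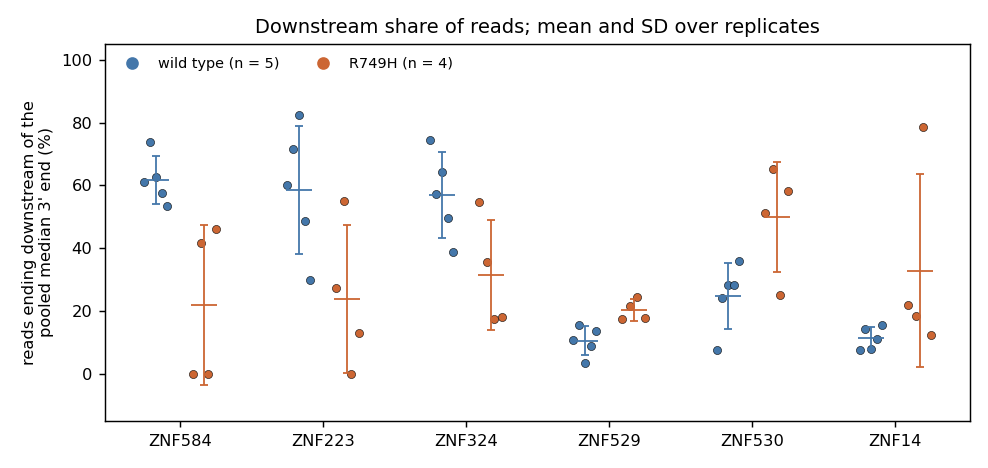
Share of reads (%) that end downstream of the pooled median 3’ end for 6 ZNF genes, the 3 per direction with the smallest unadjusted p for a shift, with a point per replicate and mean ± SD for 5 wild-type and 4 R749H replicates. None passed the adjusted threshold, the R749H values of ZNF584 range from 0% to 46.2%, and the mean of ZNF14 in R749H cells is raised by replicate 3 at 78.6%. For ZNF584, ZNF324 and ZNF14 the division lies within the leading site.

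The share of the leading site was tested in the same way for 81 ZNF genes, and none passed in limma, while 0.0273% of all genes were higher and 0.0409% lower. At an unadjusted p under 0.05 there were 4 higher (4.94%) and 2 lower (2.47%), against 6.40% and 6.62% of all genes tested. The smallest p for a higher share were those of ZNF584 (79.2 ± 7.56% in wild-type and 94.1 ± 9.13% in R749H cells), ZNF324 (68.6 ± 18.04% and 90.2 ± 8.24%) and ZNF177 (78.6 ± 7.79% and 94.4 ± 6.58%), with limma adjusted p of 0.289, 0.318 and 0.321. Those for a lower share were ZNF446 (96.9 ± 3.42% and 86.3 ± 9.12%), ZNF530 (74.9 ± 10.6% and 50.1 ± 17.5%) and ZNF580 (99.9 ± 0.192% and 99.7 ± 0.281%), with limma adjusted p of 0.277, 0.343 and 0.387. The SDs are over 5 wild-type and 4 R749H replicates.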

How the data were processed

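Poly(A) RNA from 5 wild-type and 4 R749H replicates was measured by 3’ READS, and the 4 eNETseq libraries of the study are not analysed here. The authors mapped the reads to hg19 (GRCh37) with bowtie according to the study's methods, while the submitters' processing notes name Bowtie2 2.3.2, retained those ending in non-templated As and assigned each 3’ end to the CCDS stop codon lying no more than 5 kb before it. The deposited signal values are reads per isoform after scaling by the authors, which set every replicate to a total of 7 M. Dividing by the value of 1 read returned whole reads for 100.0% of values (tolerance 0.006), and these were summed per gene. No position was listed under 2 entries.

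Expression was tested with limma 3.58.1 (trend) on log2 RPM with TMM factors and a prior count of 2 after filterByExpr of edgeR 4.0.16, in R 4.3.3. Fold changes on this scale understate the change of genes with few reads. For shifts and site shares, limma was applied to log2 odds after adding 0.5 reads in proportion to depth, for genes averaging at least 20 reads. A site joined reads within 24 nt of the highest position. P-values were adjusted over all genes tested, with 0.05 as the threshold. DESeq2 1.42.0 and edgeR on the recovered reads were alternatives, since the values are scaled. Annotation was GENCODE v44lift37. No molecular identifiers are named for the 3’ READS libraries in the sources used here, so intervals cover counting error only. The replicates of each line are biological replicates according to the study, and each pair differed by more than sampling noise (chi-square per degree of freedom at least 4.14). Both kinds of limma test were also run on simulated reads with planted differences, but the outcome is not given here and no result rests on it.

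The genes and lists, including that of KRAB corepressors, were chosen with earlier results of these data known. Genes were named by a rule: up to 10 per direction by log2 fold change among those that passed, the 3 smallest p per direction for shifts and site shares where none passed, the 6 most abundant, the 3 nearest and 3 farthest mean 3’ ends, and corepressor genes that passed. Genes named beyond this rule were chosen after their values were seen, including the other 5 lower genes, the genes that reached the read filter in one group only and the blocks. The alternatives were other scaling, read filters, prior counts, pseudocounts, site widths and points of division, edgeR and DESeq2, a replicate block and each library left out. Added after the data were seen were leaving out both libraries that stood apart, setting isoforms with 1 read to 0, and TMM scaling for the summed share.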

Additional observations from a re-analysis of the deposited data

Results flagged for a closer look

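In each of 86 groups of 4 or 5 values, the highest or lowest library was compared with the nearest of the others by Dixon's criterion, which chance meets in about 1 of 20 groups, and 8 groups met it. No explanation was tested for any of them. R749H replicate 4 had 67.8 RPM of ZNF317, where the other R749H replicates had 26.6 to 28.5 RPM, and the gene missed the threshold without it. R749H replicate 1 was high for ZNF345, at 3.13 RPM against 0 to 0.461 RPM, and for ZNF497, at 7.999 RPM against 1.153 to 2.19 RPM. R749H replicate 3 was low for ZNF565, at 0.266 RPM against 1.64 to 1.84 RPM, and for ZNF784, at 0 RPM against 1.04 to 1.153 RPM. Without this library ZNF784 had a log2 fold change of -0.98 (limma adjusted p = 0.0886). The same library had 78.6% of its ZNF14 reads downstream of the pooled median 3’ end, against 12.5% to 21.9% in the other R749H replicates. All 14 of these ZNF14 reads lay in the leading site at 879 nt. Wild-type replicate 1 had 21.4 RPM of PPHLN1, against 17.3 to 18.4 RPM in the other wild-type replicates. Wild-type replicate 2 had 99.5% of its ZNF580 reads in the leading site, against 99.9% to 100% in the others.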

How the results depend on the processing

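The number of chromosome 19 ZNF genes higher in R749H cells was 7 in the comparison as reported, 3 with the authors' scaling alone, 13 without the filter on low reads, 12 with DESeq2, 7 with edgeR, and 3 to 13 with 1 library left out, lowest without wild-type replicate 3 and highest without R749H replicate 1. The number lower was 15, 30 with the authors' scaling, 16 without the filter, 15 with DESeq2, 14 with edgeR, and 6 to 17 with 1 library left out, lowest without R749H replicate 2. Over all genes the higher numbered 1071 as reported, 447 with the authors' scaling, 999 without the filter, 1283 with DESeq2 and 1107 with edgeR. The lower numbered 1310, 2735, 1252, 1370 and 1251 in the same order. With 1 library left out, 739 to 1242 of all genes were higher and 899 to 1514 lower. Without the filter 15 of the 22 ZNF genes called still passed, and with the authors' scaling 18. Those that no longer passed without the filter were ZNF177, ZNF222, ZNF226, ZNF317, ZNF428, ZNF628 and ZNF784. Among corepressor genes, 0 were higher and 6 lower with the authors' scaling, 1 to 3 higher and 3 to 5 lower with 1 library left out, and 5 lower without wild-type replicate 1 and R749H replicate 3. The median log2 fold change of the ZNF genes was -0.46 with the authors' scaling, and 0.00035 without both of those libraries. The difference in median distance from the stop codon was -70.8 nt with a mean of at least 5 reads, and the ratio of summed reads was 0.913 with TMM scaling. The causes were not tested, except that the authors' scaling moved all genes. For single genes, 626 of the alternative values kept direction and side of the threshold, 80 no longer passed, 3 newly passed (all ZNF444) and 4 changed sign. These 4 belonged to ZNF580, which did not pass in any: 0.0195 in replicates 1 to 4 with and without the block, and -0.24 to 0.0809 with 1 library left out. No ZNF gene passed for a shift or a site share under any alternative tried.

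With replicate number as a block in replicates 1 to 4, 5 ZNF genes were higher and 15 lower, against 6 and 13 in the same libraries without the block. Over all 9169 genes, 1043 were higher and 1184 lower with the block, against 1091 and 1238 without it. The numbers share no source in the labels, and deviations from the group means correlated at -0.08, 0.05, 0.01 and -0.06 between libraries of the same number, so replicates were not treated as paired. Giving ends to the nearest stop codon only was not run, because 0 positions were listed under 2 entries. Depth limits the comparison of ends in ZNF genes with few reads, and the 97 genes below the read filter were not compared except without the filter.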

Other observations

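Some ZNF genes below the filter on low reads differed between the cell lines. They are described here after their values were seen, and without the filter 8 of the 97 (8.25%) passed as higher and 6 (6.19%) as lower (limma, adjusted over 14576 genes). Over all 14576 genes 6.85% were higher and 8.59% lower, but these include the genes past the filter, so the sets are unlike. Of all 218 ZNF genes, 13 were higher and 16 lower in that fit, beside 999 and 1252 of the 14576. ZNF844 had 1, 1, 0, 5 and 1 reads in wild-type and 12, 27, 24 and 40 reads in R749H replicates, with a log2 fold change of 3.35 ± 0.45 (SE, limma adjusted p = 0.000246). ZNF578 had 0, 0, 0, 1 and 0 against 13, 8, 8 and 6 reads, and ZNF563 had 0, 1, 0, 0 and 0 against 8, 4, 6 and 15 reads. All R749H libraries of these 3 genes were above all wild-type libraries, as they were for ZNF93. ZNF442 had 0 reads in the wild-type replicates and 1, 7, 7 and 5 reads in the R749H replicates. ZNF844, ZNF563, ZNF442, ZNF439 and ZNF878 have their stop codons in the block from ZNF653 to ZNF791 (chr19:11594497-12740074). These 5 are among the 8 higher genes, while 0 of the 6 lower genes lie in that block. The block holds 24 of the 218 ZNF genes, and 9 of them were past the filter. Of these 9, 0 were higher and 1 was lower. Their log2 fold changes had a median of 0.24, with 7 above 0 and 2 below. Among the lower genes, ZNF836 had 7, 6, 4, 13 and 3 reads in wild-type and 0, 0, 0 and 2 reads in R749H replicates (log2 fold change -1.64 ± 0.39, SE, limma adjusted p = 0.0101). ZNF536 had 2, 5, 6, 6 and 4 against 1, 0, 0 and 1 reads.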
